A study of Mus musculus with 7 samples.

Results

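The genes described are the Rab, Arf, Arl, Vps, Snx, Sec, Cop, Tbc1d and Dennd families, which move vesicles between the membranes of the cell. Members were chosen by symbol, as every gene named on the array whose symbol began with Rab, Arf, Arl or Sec and a digit, with Vps, Snx, Tbc1d or Dennd, or with Cop and one of the letters a, b, e, g or z. There were 88 such genes, measured by 104 bead targets, of 7413 genes named on the array. Since 261 mouse genes in the reference gene table match these prefixes, most genes of these families were not analysed here. The prefixes also took in a few genes of another kind, such as Rab10os, named as an antisense RNA of Rab10, and Sec1, a fucosyltransferase.

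RNA was measured in 4 Myc-null and 3 wild-type mouse embryonic hearts, each on its own array of an Illumina mouse reference BeadChip. The titles place the hearts at E13.5 (embryonic day), although a further label allows any stage of E12.5-15.5. A free-text field speaks of embryos that have not yet switched on their genome, which conflicts with the titles, and it was set aside. Strain, the way and the cells in which Myc was removed, and whether hearts of a group came from separate litters are not given in the sources used here, so p-values measure the spread between these 7 samples. The labels speak of cardiac myocyte RNA but describe whole hearts, in which fewer cells of a type and less RNA per cell cannot be told apart. All arrays lay on 1 BeadChip, with Myc-null hearts at positions E to H and wild-type hearts at positions A to C, so position and genotype cannot be told apart.

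Rab, Arf and Arl proteins are small GTPases that sit on membranes in their GTP-bound form. DENN domain proteins are known as exchange factors that load Rabs with GTP, and TBC domain proteins speed its hydrolysis. Coat proteins then shape carriers (COPII at the endoplasmic reticulum, COPI at the Golgi), tethers such as HOPS, CORVET and GARP catch them at the target membrane, and retromer and sorting nexins return cargo from endosomes. In heart muscle these routes place ion channels, receptors and glucose transporters at the cell surface. Myc binds DNA with Max at the E-box CACGTG, and the comparison asks which transcripts differ in embryonic hearts without Myc.

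RefSeq promoters, covering 250 bases before to 50 bases after each start on GRCm38.p6, were matched for 73 of the 88 members and gave 95 promoters. The promoters that follow are those of the 3 members whose arrays did not overlap between genotypes and of Rab3il1, the tested member with CACGTG at 2 places, with CACGTG in capitals. The intervals are chr2:152293578-152293877 for Tbc1d20, chr19:60811305-60811604 for Dennd10, chr16:21422868-21423167 for Vps8 and chr19:10017944-10018243 for Rab3il1, all on the + strand.
Tbc1d20: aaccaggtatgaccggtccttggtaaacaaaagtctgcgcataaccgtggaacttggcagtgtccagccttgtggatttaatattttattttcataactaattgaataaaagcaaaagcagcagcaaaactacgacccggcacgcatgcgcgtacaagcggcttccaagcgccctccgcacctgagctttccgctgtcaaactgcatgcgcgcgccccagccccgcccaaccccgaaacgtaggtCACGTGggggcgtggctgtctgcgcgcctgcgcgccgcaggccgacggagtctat
Dennd10: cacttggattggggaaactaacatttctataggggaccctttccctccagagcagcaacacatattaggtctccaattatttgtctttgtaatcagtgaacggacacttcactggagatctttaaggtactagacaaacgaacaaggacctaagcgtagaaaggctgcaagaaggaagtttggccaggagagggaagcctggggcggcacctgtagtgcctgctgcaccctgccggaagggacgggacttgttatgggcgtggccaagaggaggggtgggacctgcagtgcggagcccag
Vps8: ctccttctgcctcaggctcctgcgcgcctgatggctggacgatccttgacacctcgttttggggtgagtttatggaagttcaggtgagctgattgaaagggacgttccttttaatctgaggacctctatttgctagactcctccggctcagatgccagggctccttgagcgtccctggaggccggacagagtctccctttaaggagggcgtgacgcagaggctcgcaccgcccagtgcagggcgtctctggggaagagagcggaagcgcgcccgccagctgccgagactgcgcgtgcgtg
Rab3il1: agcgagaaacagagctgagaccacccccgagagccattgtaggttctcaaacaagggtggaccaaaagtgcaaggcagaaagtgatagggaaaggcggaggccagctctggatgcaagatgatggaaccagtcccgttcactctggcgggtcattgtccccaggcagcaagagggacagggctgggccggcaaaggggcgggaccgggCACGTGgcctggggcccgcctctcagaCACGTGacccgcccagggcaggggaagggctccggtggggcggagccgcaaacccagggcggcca
In Tbc1d20 the motif begins 5 bases before the annotated start, and in Rab3il1 the copies begin 42 and 15 bases before the start shown. Rab3il1 has 5 annotated starts, of which the start shown and a neighbour hold both copies and the other 3 hold none. Rab5a, which was not detected, also has 2 copies. The motif reads the same on both strands, and no other motif was searched. It was found in 17 of the 95 member promoters (17.9%), against 2349 of all 32851 promoters in the table (7.15%) and 8.30% of the promoters of genes named on the array. Tested members with the motif were Arf5, Rab21, Rab24, Rab3gap2, Rab3il1, Snx5 and Tbc1d20, and 3 of these 7 had a higher mean in Myc-null hearts, with a median log2 difference of -0.13. Among the 38 tested members with a promoter but no motif in it, 22 had a higher mean and the median was 0.06. A letter match in this window is a description and not a binding site.

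A target counted as detected on an array at a detection score of at least 0.99, where the score is 1 minus the detection p-value. Of the 88 members, 45 were detected on all 7 arrays, 7 on 3 to 6 arrays, 5 on 1 or 2 arrays and 31 on none. The number detected per array was 49 to 52 in Myc-null and 50 to 54 in wild-type hearts. The 52 members detected on at least 3 arrays were tested, and they were 17 of 27 Rab, 1 of 1 Arf, 5 of 9 Arl, 5 of 11 Vps, 6 of 7 Snx, 7 of 11 Sec, 2 of 2 Cop, 5 of 10 Tbc1d and 4 of 10 Dennd genes. Not detected on any array were Rab5a, the early endosome Rab, Rab18, Rab26, Rab27b, Rab43 and Rab6b with Rab10os, Rab11fip1 and Rab11fip4, and also Arl4a, Arl9, Arl14ep and Arl6ip6. The same held for Vps4b, the ATPase that takes ESCRT-III apart, Vps13a, Vps35l, Vps37a and Vps39, for Snx29, for Sec1, Sec22c, Sec24a and Sec62, for Tbc1d2, Tbc1d9 and Tbc1d24, and for Dennd1b, Dennd2d, Dennd4c, Dennd6a and Dennd11. Rab20 was detected on 2 arrays, and Vps50, Tbc1d4, Tbc1d22b and Dennd5b on 1 each. An undetected target gives no level for its gene and does not show that the gene is silent.

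**Figure D1:**
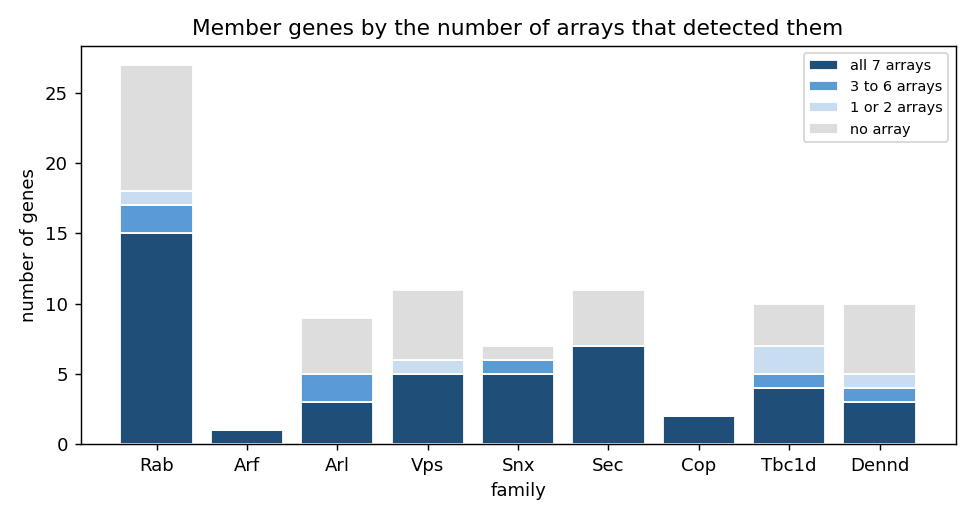
Number of member genes on the array in each family (vertical axis, genes), stacked by how many of the 7 arrays detected their best target. All 7 Sec genes that were tested were detected on every array, whereas 9 of 27 Rab and 5 of 10 Dennd genes were detected on none.

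Signals are the deposited rank-invariant normalized intensities, and differences are Myc-null minus wild-type on the log2 scale with signals under a floor of 58.2 raised to it, which understates changes of dim genes. In the limma fit over 9066 tested units (named genes and unnamed targets), 0 of the 52 members passed an adjusted p of 0.05, and 0 of 9066 units did (0%). At an unadjusted p under 0.05 there were 3 members (5.77%), against 485 of all units (5.35%): Dennd10 was higher in Myc-null hearts, as were 3.39% of all units, and Tbc1d20 and Vps8 were lower, as were 1.96%. Groups did not overlap for the same 3 members (5.77%), against 619 of all units (6.83%), of which 4.07% were higher and 2.76% lower in Myc-null hearts. Neither count stands away from the background. Without wild-type 3 the same 3 members had an unadjusted p under 0.05, as did 3.94% of all units, and without wild-type 3 and Myc-null 2 only Dennd10 and Tbc1d20 did, against 4.04%. A higher mean in Myc-null hearts was seen for 29 members (55.8%), against 54.5% of all units, with median differences of 0.03 in both sets. Under median scaling 23 of the 52 members had a higher mean, against 3954 of all 9066 units. Under quantile normalization 24 members did, against 4020 of all units. The median standard error of a member's difference was 0.16, and its 95% interval reached 0.38 to either side in the median. Changes under that size were mostly not detectable with this number of arrays, even before adjustment. After adjustment larger ones were not called either, such as Dennd10 at 0.78 (limma adjusted p = 0.76). Over all units the differences reached 2.43 and none was called.

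Among the 7 arrays wild-type 3 stood apart, with correlations of 0.927 to 0.938 with the other arrays. It had 6 of the 52 members (11.5%) at least 1 log2 unit below their 7-array median, against 8.72% of all units, and no other array had any member that far from its median. The 18S ribosomal RNA target read 1523 in Myc-null 2 and 702 to 761 in the other Myc-null hearts, against 2682 in wild-type 3 and 902 and 914 in the other wild-type hearts. Myc's own target was detected on 0 arrays, so the genotype labels have no check here. Of 10 cardiomyocyte markers named on the array, 9 were tested, the exception being Ryr2, and their summed signal spanned 67785 to 104411 in Myc-null and 66576 to 88175 in wild-type hearts. Erythroid markers (5 of 5 tested) summed to between 84731 and 122152 in Myc-null hearts, highest in Myc-null 2, and to between 77481 and 92921 in wild-type hearts. All 5 had higher means in Myc-null hearts, 4 without wild-type 3, and Hbb-y alone had no overlap between the groups. Cartilage markers (4 of 6 tested) summed to 3101 in Myc-null 2 and to at most 761 in the other Myc-null hearts, against 457 to 962 in wild-type hearts. Mesenchymal markers (6 of 7 tested) summed to 8219 to 15169 in Myc-null and 12728 to 19055 in wild-type hearts, highest in wild-type 3. Eln (11254) and Col1a1 (3505) were highest on that array, but Dcn (3129) and Vcan (42.6) were lowest there. Sums mostly follow their brightest genes, such as Myh7 for cardiomyocytes and Hba-a1 for erythroid cells (means of 58256 and 62115 in Myc-null hearts). Endothelial markers (3 of 3 tested) summed to 2853 to 3547 in Myc-null hearts. Their sums were 3180.1 and 3023 in wild-type 1 and 2 and 1893 in wild-type 3. Of the 3 markers, only Emcn had its lowest signal in wild-type 3, at 448. Pecam1 read 616 there, against 571 and 710 in wild-type 1 and 2, and Egfl7 read 830, against 819 and 779. Epicardial markers (6 of 6 tested) summed to 1378 to 2186 in Myc-null and 1566 to 2469 in wild-type hearts, highest in wild-type 3. Krt19 among them was lower in every Myc-null heart than in any wild-type heart, and the groups of the other markers overlapped. Means were lower in Myc-null hearts for 4 of the 6 and higher for 2, Wt1 and Tbx18. Wt1 had its lowest signal, 418, in wild-type 3. Leukocyte markers (2 of 5 tested) summed to 264 to 297 in Myc-null and 286 to 295 in wild-type hearts, and neural markers (2 of 5 tested) to 393 to 493 in Myc-null and 425 to 498 in wild-type hearts. Smooth muscle markers (1 of 2 tested) summed to 749 to 1224 in Myc-null and 874 to 1362 in wild-type hearts. The part of these cell types and of RNA quality in the results was not tested, and values without wild-type 3 are given beside the differences of named genes that it moved by over 1.5 times.

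Of the genes that switch Rabs on and off, a DENN domain gene was higher and a TBC domain gene lower in Myc-null hearts, each with no overlap between the groups. Dennd10, a DENN domain protein linked to late endosomes, had signals of 112, 139.9, 120.2 and 121 in Myc-null 1 to 4, against 72.6, 86.6 and 36.7 in wild-type 1 to 3. Every Myc-null heart lay above every wild-type heart, and the wild-type hearts were spread more widely, with wild-type 3 lowest. The means were 123 ± 11.9 in Myc-null (SD, n = 4) and 65.3 ± 25.7 in wild-type hearts (SD, n = 3), and the log2 difference was 0.78 (SE 0.16, limma unadjusted p = 0.0018, adjusted p = 0.76). It was 0.63 without wild-type 3. The unadjusted p with all arrays was the 10th smallest among the 9066 units. The members were chosen with earlier results of these data known, so this rank is not independent support. The target was detected on all 7 arrays, but its signal of 36.7 in wild-type 3 was under the floor and was raised to it. The standard error over its 32 to 48 beads per array was at most 3.71 signal units. That error measures spread within an array and not between hearts.

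Tbc1d20, a GTPase-activating protein for Rab1 and Rab18 that acts between the endoplasmic reticulum and the Golgi, gave 263, 180.5, 283 and 245 in the Myc-null hearts, against 402, 337 and 376 in the wild-type hearts. All Myc-null hearts were below all wild-type hearts, Myc-null 2 most of all. Mean signal was 243 ± 44.4 in Myc-null and 372 ± 33.0 in wild-type hearts (SD, n = 4 and 3), a log2 difference of -0.63 (SE 0.17, limma unadjusted p = 0.0083, adjusted p = 0.76). Leaving out wild-type 3 gave -0.62 and leaving out Myc-null 2 gave -0.49. Its Rab substrate Rab18 was on the array but not detected.

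The other TBC and DENN genes had overlapping groups. Tbc1d23, a trans-Golgi protein that captures vesicles from endosomes, read 501, 600.4, 629 and 606 in Myc-null hearts and 487, 528 and 221 in wild-type hearts. Its difference of 0.60 (SE 0.31) became 0.20 without wild-type 3, the array on which it was lowest. Dennd3, an exchange factor for Rab12, read 104, 139, 125 and 105 in Myc-null hearts and 117, 170.0 and 180.1 in wild-type hearts, a difference of -0.38 (SE 0.19). Myc-null 2 and 3 lay between the lowest and the other wild-type hearts. In the Tbc1d family 3 of 5 tested genes had higher means (2 of 5 under quantile normalization), with a median of 0.03. In the Dennd family 2 of 4 did (1 of 4 under quantile normalization), with a median of -0.04. Without wild-type 3 and Myc-null 2 these counts were 4 of 5 and 3 of 4.

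**Figure D2:**
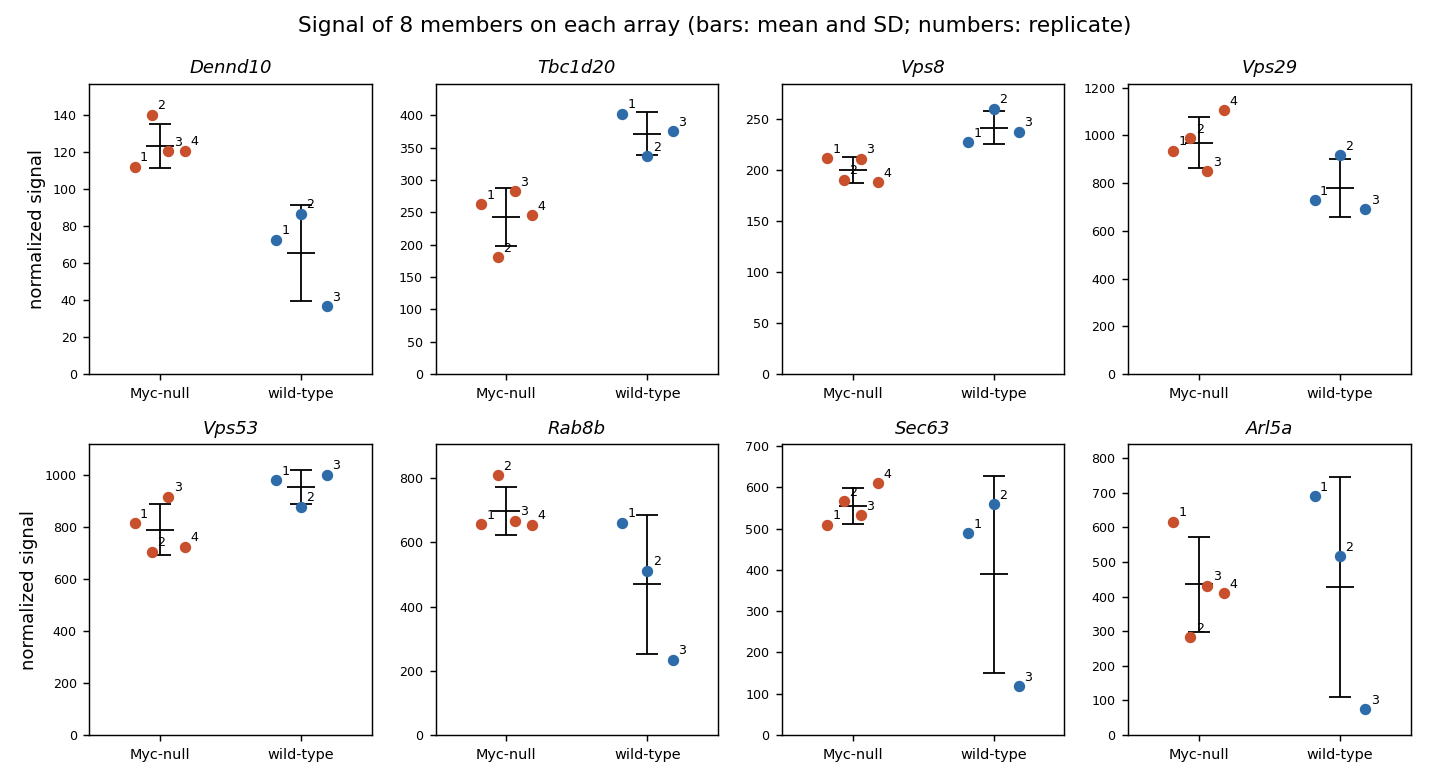
Normalized signal (vertical axis from 0, signal units) of 8 members on each array, Myc-null hearts at left in red and wild-type hearts at right in blue, with replicate numbers and bars for mean and SD. Dennd10, Tbc1d20 and Vps8 do not overlap between groups, whereas wild-type 3 lies far below the other arrays for Rab8b (235), Sec63 (117) and Arl5a (74.8).

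Among the Vps genes, the tested tether subunits had lower means in Myc-null hearts and the tested retromer subunit a higher one. Vps8, a subunit of the endosomal tether CORVET, gave 212, 191, 211 and 188 in Myc-null hearts, against 228, 260.3 and 238 in wild-type hearts. The highest Myc-null heart lay below the lowest wild-type heart, by a narrow margin. The difference was -0.27 (SE 0.10, limma unadjusted p = 0.026, adjusted p = 0.76), and -0.28 without wild-type 3. Vps53, a subunit of the Golgi tether GARP, gave 813, 704, 916 and 724 in Myc-null hearts and 979, 877 and 999.7 in wild-type hearts, a difference of -0.28 (SE 0.12). Only Myc-null 3 reached into the wild-type range. Its second target was detected on 1 array.

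Vps51, also of GARP, was at -0.26 (SE 0.14), and Vps18, a core subunit of HOPS and CORVET, at -0.29 (SE 0.19). Both were highest in wild-type 3, Vps51 at 591 and Vps18 at 811, and without that array they were at -0.11 and -0.07. Vps29, a subunit of retromer and Retriever, gave 936, 987, 851 and 1104 in Myc-null hearts, against 729, 917 and 691 in wild-type hearts. Wild-type 2 lay within the Myc-null range and the other wild-type hearts below it. Its difference was 0.32 (SE 0.14, limma unadjusted p = 0.058, adjusted p = 0.76), and 0.24 without wild-type 3. The Vps family as a whole had 4 of 5 means lower, also under quantile normalization and median scaling, with a median of -0.27 that became -0.11 without wild-type 3. No Vps gene passed the adjusted threshold.

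Of 17 tested genes of the Rab family, 7 had higher means in Myc-null hearts, with a median difference of -0.06, and none had groups that did not overlap. Under quantile normalization 5 of the 17 were higher, against 4020 of all 9066 units. Without wild-type 3 and Myc-null 2 the count was 11 of 17, against 4926 of all units. Rab8b, which serves transport to the plasma membrane, gave 657, 809, 668 and 655 in Myc-null hearts, against 660.5, 512 and 235 in wild-type hearts. Myc-null 2 was high, wild-type 3 was low, and the other arrays lay together apart from wild-type 2. Its difference of 0.69 (SE 0.34) was 0.26 without wild-type 3. Rab8a, its close relative, did the opposite on that array, with 181 in wild-type 3 and between 119.9 and 152 on the other arrays, and its difference of -0.10 (SE 0.18) was 0.09 without it.

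Rab11a, of recycling endosomes, was at 0.31 (SE 0.22), again lowest in wild-type 3 (172), and at 0.08 without it, while Rab11b was at -0.10 (SE 0.11) and at -0.010 without it. Rab7, of late endosomes, was at -0.03 (SE 0.12), and at 0.072 without wild-type 3. Rab3il1, an exchange factor for Rab3 and Rab8, read 63.3, 101, 46.2 and 39.4 in Myc-null hearts and 78.5, 64.4 and 99.5 in wild-type hearts. Its groups overlapped widely, with Myc-null 2 at the top, and its difference was -0.22 (SE 0.25), -0.06 without wild-type 3 and -0.41 without Myc-null 2.

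Arf5, the 1 Arf among the named genes, which serves the Golgi, gave 1189.9, 1147, 1154 and 1148 in Myc-null hearts and 1229, 1065 and 1664 in wild-type hearts. The Myc-null hearts were nearly equal, and wild-type 3 was the highest array. The difference of -0.16 (SE 0.16) became 0.02 without that array. All 5 tested Arl genes had higher means in Myc-null hearts (4 of 5 under quantile normalization or median scaling, 3 of 5 without wild-type 3), with differences from 0.00 to 0.49, and 2 of them, Arl4d and Arl5c, were at the floor on 6 and 5 arrays.

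Arl5a, a GTPase of the trans-Golgi, showed the widest spread of any member. Its signals were 617, 282, 432 and 409.9 in Myc-null hearts, against 690.4, 517 and 74.8 in wild-type hearts. The remaining wild-type hearts lay above the middle of the Myc-null range, and wild-type 3 was 2.53 log2 units below the 7-array median. The difference was 0.49 (SE 0.76) with all arrays, -0.51 without wild-type 3 and -0.32 without wild-type 3 and Myc-null 2, so its direction rests on 1 array. Arl1, which recruits golgins at the trans-Golgi, was at 0.24 (SE 0.19), or 0.15 without wild-type 3, with 1647, 2271, 1649.9 and 2502 in Myc-null hearts and 1823, 1750.5 and 1488 in wild-type hearts, and these ranges overlapped.

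**Figure D3:**
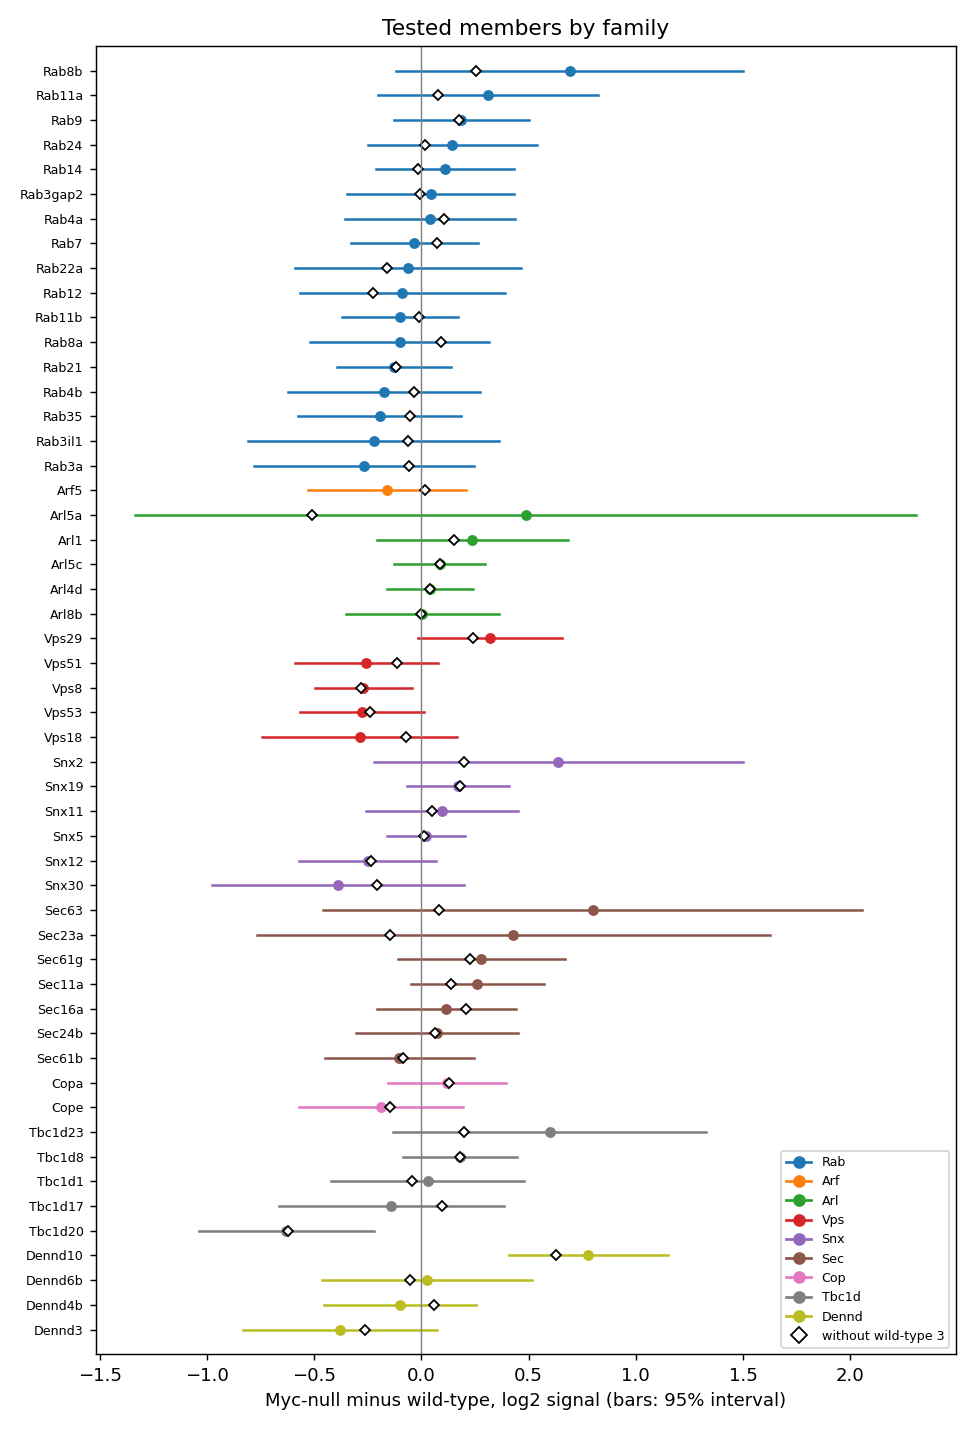
Log2 difference (Myc-null minus wild-type, horizontal axis) of the 52 tested members with 95% intervals, coloured by family, and the difference without wild-type 3 as open diamonds. Intervals that exclude 0 are those of Dennd10, Tbc1d20 and Vps8, and 12 diamonds, those of Arl5a and Sec23a among them, lie on the other side of 0 from their points.

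The Sec genes had higher means for 6 of 7 tested members (5 of 7 under median scaling), with a median difference of 0.26, which was 0.08 without wild-type 3. Sec63, a translocon partner in the endoplasmic reticulum membrane, gave 509.9, 567, 532 and 611 in Myc-null hearts, against 489.5, 560.0 and 117 in wild-type hearts. Apart from wild-type 3 the groups lay in the same range. The difference of 0.80 (SE 0.53) was the largest of any member and was 0.08 without that array. Sec61g, a small translocon subunit, was at 0.28 (SE 0.16), and Sec11a, a catalytic subunit of signal peptidase, at 0.26 (SE 0.13), which was 0.14 without wild-type 3, its lowest array.

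Sec61b, another translocon subunit, was at -0.10 (SE 0.15). Of the COPII genes, Sec23a, an inner coat subunit, read 358, 226, 417 and 193 in Myc-null hearts and 343, 289.5 and 94.97 in wild-type hearts. The groups overlapped, and wild-type 3 was the lowest array. The difference of 0.43 (SE 0.50) was -0.15 without wild-type 3. Sec16a, which organises endoplasmic reticulum exit sites, and the cargo adaptor Sec24b were at 0.12 (SE 0.14) and 0.07 (SE 0.16). Sec16a was at 0.21 without wild-type 3 and 0.027 without Myc-null 2, and Sec24b at -0.012 without Myc-null 2. Of the COPI subunits, Copa was at 0.12 (SE 0.12) and Cope at -0.19 (SE 0.16), with overlapping groups, and Cope was at -0.11 without Myc-null 2.

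Of 6 tested sorting nexins 4 had higher means, with a median of 0.06. Snx2, a partner of retromer, gave 842, 1287, 898 and 833 in Myc-null hearts, against 873, 784 and 330.3 in wild-type hearts. The extremes were Myc-null 2 and wild-type 3, and the difference of 0.64 (SE 0.36) was 0.20 without wild-type 3 and 0.05 without both. Snx19, a nexin of contacts between endoplasmic reticulum and endolysosomes, was at 0.17 (SE 0.10) but at 0.08 to 0.09 under quantile normalization, median scaling and neqc, with 272, 283, 279 and 287 in Myc-null hearts and 222, 276 and 252 in wild-type hearts, where only wild-type 2 lay within the Myc-null range. Snx12, an endosomal relative of Snx3, was at -0.25 (SE 0.13), and Snx30 at -0.39 (SE 0.25), with its highest signal, 126, in wild-type 3, without which it was at -0.21.

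Over all 52 members, 6 differed by more than 0.5 in size, namely Dennd10, Tbc1d20, Rab8b, Snx2, Sec63 and Tbc1d23. The 5 of these with higher means in Myc-null hearts all had their lowest signal in wild-type 3. Without that array 3 members differed by more than 0.5, and 12 of the 52 changed sign. The members at least 1 log2 unit low in wild-type 3 were Arl5a (-2.53), Sec63 (-2.18), Sec23a (-1.61), Rab8b (-1.48), Snx2 (-1.35) and Tbc1d23 (-1.26). They come from 5 families, and the members highest on that array relative to their median were Vps18 and Snx30 (0.69 each) and Rab3il1 (0.63).

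**Figure D4:**
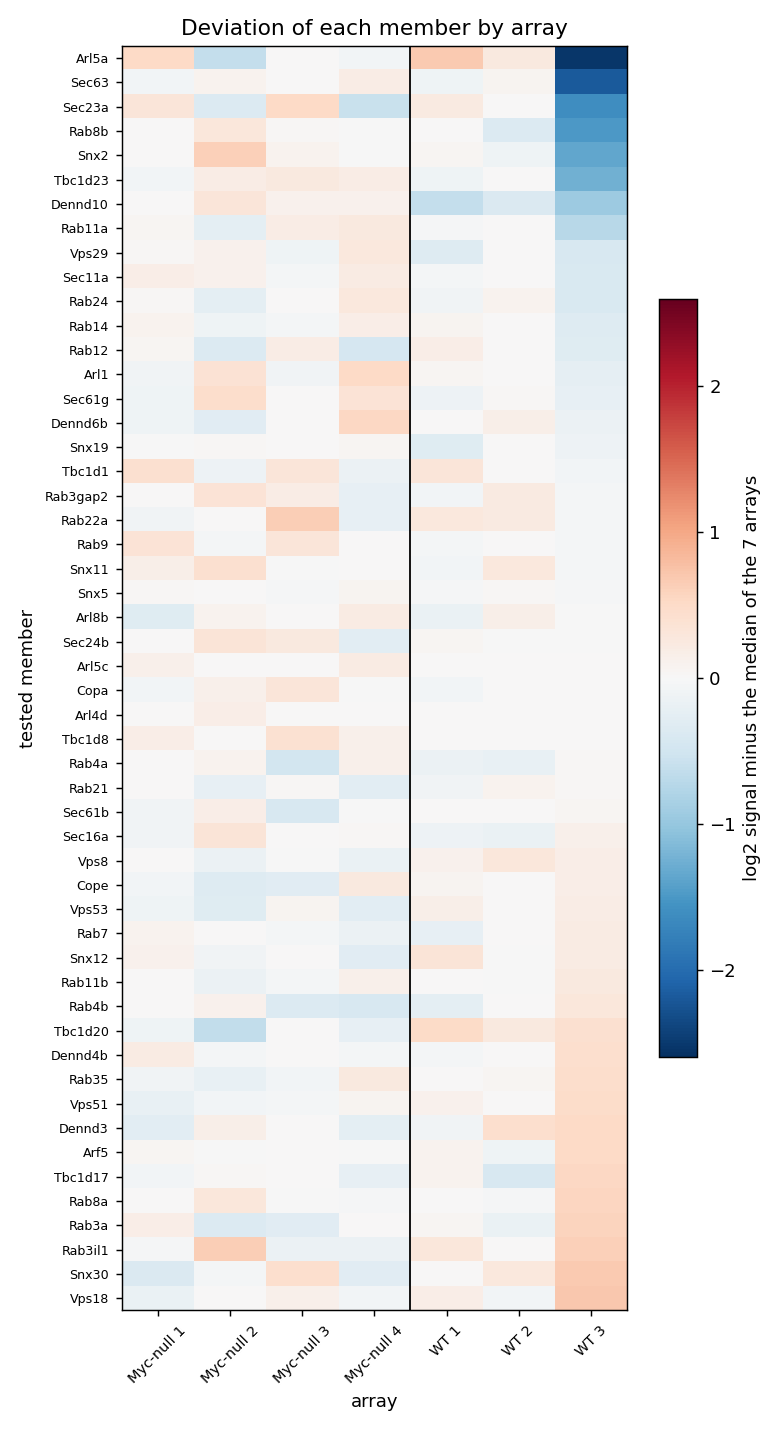
Log2 signal of each tested member (rows) minus its median over the 7 arrays (colour scale, log2 units) on the 4 Myc-null arrays at left and the 3 wild-type arrays at right, sorted by the value in wild-type 3. Wild-type 3 holds the deepest values, down to -2.53 for Arl5a, and no other array reaches 1 in size.

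Genes with more than 1 tested target show whether targets of a gene move alike. The 3 targets of Cope were at -0.19, -0.22 and -0.23, and the 2 of Rab8a at -0.10 and -0.07. Both targets of Sec63 were low in wild-type 3, at 117 and 73.6, and gave differences of 0.80 and 0.97. The 3 Rab7 targets disagreed: the brightest, which stands for the gene elsewhere in the text, was highest in wild-type 3 (1719.6) and gave -0.03. The others were lowest there (90.6 and 60.9) and gave 0.16 and 0.19. For Sec61b the targets gave -0.10 and 0.04. The second targets of Arl5a, Rab8b and Rab9 were detected on 0 arrays.

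**Figure D5:**
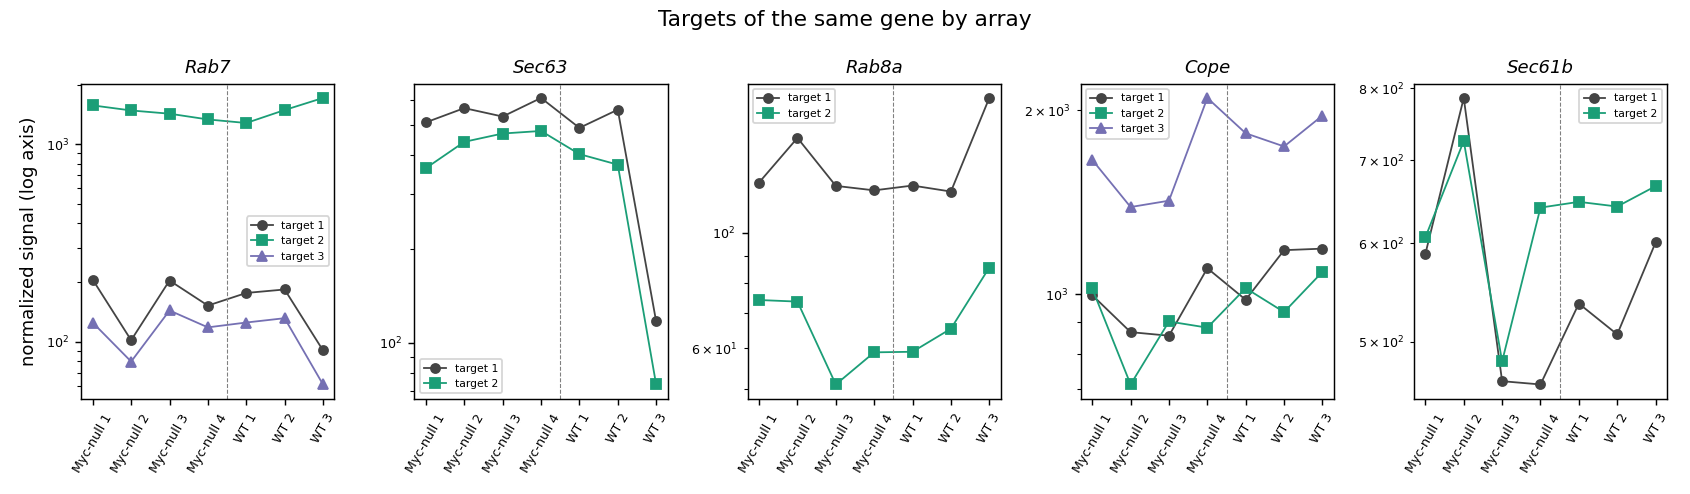
Normalized signal (log axis, signal units) on each array for every tested target of the 5 members with several, Myc-null arrays left of the dashed line and wild-type arrays (WT) right of it. The targets of Sec63 drop together in wild-type 3, and those of Rab7 part there.

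The authors' deposited table of difference scores, whose direction it does not state, gave scores of 13 or more in size for 3 of the 52 tested members (5.77%), against 4.53% of all tested units. In the authors' deposited table these were Tbc1d20 (-27.5), Dennd10 (20.3) and Vps29 (13.8), with signs that match Myc-null minus wild-type. The same table gave Vps4b 13.9, although its target was detected on 0 arrays.

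Lists of trafficking genes outside these families were set beside them, with 0 genes called in any of them. Tethers outside the Vps family (14 of 19 on the array tested) had 10 higher and 4 lower means and a median of 0.24, which was 0.11 without wild-type 3. Among them the TRAPP subunits Trappc13 and Trappc3 were at 0.53 (SE 0.20) and 0.31 (SE 0.13), with no overlap between groups, and at 0.28 each without wild-type 3. The ESCRT genes (9 of 10 tested) had 6 higher and 3 lower means with a median of 0.08. Under quantile normalization and median scaling they had 5 higher and 4 lower means, with medians of 0.009 and 0.0001.

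The ESCRT-III subunit Chmp5 gave 116, 147, 94.9 and 174 in Myc-null hearts, against 78.2, 84.0 and 56.9 in wild-type hearts. All its Myc-null values were above all its wild-type values, its difference was 0.84 (SE 0.24, limma unadjusted p = 0.011, adjusted p = 0.76), and it was 0.68 without wild-type 3. The Chmp5 signal in wild-type 3 was under the floor and was raised to it. Apart from the runs that left out each array in turn, the alternatives put its difference between 0.23 and 0.85. The ESCRT-III subunit Chmp4b was at -0.25 (SE 0.13). Regulators of Rab and Arf proteins (15 of 17 tested) had 10 higher and 5 lower means with a median of 0.13. Under median scaling 8 of these regulators were higher and 7 lower, with a median of 0.05. Without wild-type 3 and Myc-null 2 their median was 0.03. The smallest unadjusted p-values among them were those of Gdi2, which extracts Rabs from membranes, at 0.47 (SE 0.16), and the arfaptin Arfip1 at 0.42 (SE 0.16).

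Cargo receptors and membrane proteins between the endoplasmic reticulum and the Golgi (11 of 16 tested) had 6 higher and 5 lower means and a median of 0.09. Ergic2, of the intermediate compartment, was at 0.62 (SE 0.24) and at 0.31 without wild-type 3, with no overlap between groups. The mannose 6-phosphate receptor M6pr was at 0.21 (SE 0.12), also with no overlap but by a narrow margin (1199 in Myc-null 3 against 1191 in wild-type 2). Clathrin and its adaptors (13 of 18 tested) had 6 higher and 7 lower means and a median of -0.03. The median was -0.12 under quantile normalization, and without wild-type 3 it was 0.06, with 8 higher and 5 lower means. Ap1b1 was at -0.21 (SE 0.12) and Ap3s2 at 0.26 (SE 0.18), or -0.14 and 0.43 without wild-type 3. SNAREs (5 of 13 tested) had 3 higher and 2 lower means and a median of 0.15, with Vti1a at -0.40 (SE 0.21), or -0.24 without wild-type 3, and Stx17 at 0.24 (SE 0.16). Groups did not overlap for 2 of 14 tethers, 1 of 15 regulators, 2 of 11 cargo receptors and 1 of 9 ESCRT genes. All of these were higher in Myc-null hearts, against 4.07% of all units higher and 2.76% lower without overlap. The SNARE and clathrin lists held none.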

How the data were processed

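Total RNA (100 ng per sample) of 4 Myc-null and 3 wild-type embryonic mouse hearts was hybridised to bead arrays, and samples were grouped by their titles. Per the labels, the authors normalized signal by the rank-invariant method. The software was BeadStudio, version 1.5.0.34 per the submitters' processing notes but 1.5.1.3 per the file headers. The deposited matrix holds normalized signal intensity, linear in the raw signal of each array to within 0.113 units. For each array, raw signal intensity, a detection score (a fraction from 0 to 1), the spread over beads and the bead number were used, per the file headers. The authors' deposited difference score per target does not state its direction, and 13 in size was taken as its threshold.

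The files give no gene symbols. Numbers in target identifiers with 1 or 2 leading zeros were looked up as NCBI gene identifiers in the RefSeq gene table (GRCm38.p6), and 8884 of 9523 matched (93.3%). Every member name rests on this lookup. Some further targets were named by a RefSeq transcript in their identifier, giving 8893 named targets. Of 24048 targets, those detected (score of at least 0.99) on 3 or more of 7 arrays were tested, the brightest per gene, giving 9066 units. Signals under a floor of 58.2 (each array's 5th percentile of signal among detected targets, then the median of the 7 values) were raised to that floor before log2. The groups were set against each other in limma 3.58.1 under R 4.3.3 (functions lmFit and eBayes, 2-sided, Benjamini-Hochberg over all units, threshold 0.05, 95% intervals), after a test on simulated data. Precision is limited by the number of arrays.

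The members and lists were chosen with earlier results of these data known, and no list was tested. Named genes are Arl5a, Tbc1d20 and Dennd10, the members with the smallest p per family and direction, members with several tested targets or with an authors' score of 13 or more, those farthest from their median in an array that stands apart, fixed representatives, and the leading 2 genes of each outside list. Some members were named beyond this rule, after their values were seen. Alternatives were quantile normalization, median scaling, neqc on raw signal, other floors, filters and choices of target, array weights, the label number as a block, and leaving out each array or wild-type 3 with Myc-null 2. As a pairing check, the deviations of samples with the same number correlated at 0.17, -0.26 and -0.31, so the numbers were not taken to pair samples.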

Additional observations from a re-analysis of the deposited data

Results flagged for a closer look

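Of 39 member and family values tested for an array far from the other 3 Myc-null arrays, 5 stood apart. The limit used lets through about 1 in 20 by chance when values are independent and off the floor. Family values share genes with member values and some signals were raised to the floor. The count of 5 can therefore not be set against that rate. In Myc-null 2 the log2 signal of Rab8b was 9.66, against 9.36 to 9.38 in the other Myc-null hearts. Rab8a was at 7.25 in Myc-null 2, against 6.91 to 6.96, and Rab3il1 at 6.66, against 5.86 to 5.98. For Rab3il1 this rests on the floor, to which its signals of 46.2 in Myc-null 3 and 39.4 in Myc-null 4 were raised. The median deviation of the Rab family from its 7-array medians was -0.0528 in Myc-null 2, against -0.00265 to 0.00445 in the other Myc-null hearts. That median is the value of Rab9, whose signal of 57.2 in Myc-null 2 was raised to the floor, so it also rests on the floor. The median deviation of all members was -0.000229 in Myc-null 4 and exactly 0 in the others, a gap with almost no size. The 3 wild-type arrays were not compared in this way, so wild-type 3 is not among these values. Myc-null 2 is also the array with the highest summed erythroid and cartilage markers, and their part in these values was not tested.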

How the results depend on the processing

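No member and no unit was called under any alternative run, and of the alternative values of counts and medians 318 moved by less than the spread between replicates or, for counts, 1.5 times, and 49 moved by more. Members at an unadjusted p under 0.05 numbered 3, but 5 with array weights and 3 to 6 when 1 array was left out. The median of all members was -0.050, -0.041 and -0.048 under quantile normalization, median scaling and neqc, which also put the median of all units at -0.028 to -0.034, a shift under 0.1. The Rab median was -0.16, -0.14 and -0.13 under the same settings, 0 with double the floor or no detection filter, 0.021 without wild-type 3 and Myc-null 2, 0.0072 with array weights, and -0.076 to 0.0081 with 1 array left out. The Vps median was -0.35 under median scaling, 0 with no detection filter, -0.11 without both arrays, -0.19 with array weights, and -0.33 to -0.11 with 1 array left out. The Dennd median was -0.22 with neqc, -0.18 with a lower floor and 0.071 without both arrays, and the SNARE median 0 with double the floor or no detection filter. The median of the outside tethers was 0.16 under quantile normalization, median scaling and neqc, 0.055 with double the floor, 0.093 with no filter, 0.15 without both arrays or with array weights, and 0.11 to 0.31 with 1 array left out. For cargo receptors it was 0.025, 0.011 and 0.025 under quantile normalization, median scaling and neqc, 0 with no filter, 0.032 without both arrays, and 0.028 to 0.14 with 1 array left out.

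Among alternative values of the genes chosen by the naming rule, 18 changed sign and 800 did not, which leaves out the other tested members. Quantile normalization, median scaling and neqc put Snx19 at 0.082, 0.095 and 0.077, Sec16a at 0.063, 0.041 and 0.062, Sec24b at 0.026, -0.002 and 0.025, and Rab11b at -0.16, -0.18 and -0.15, and median scaling put Copa at 0.043 and Rab7 at -0.11. Without wild-type 3 and Myc-null 2, Arf5 was at 0.025, Arl5a at -0.32, Rab7 at 0.062, Rab8a at 0.015 and Sec23a at -0.038. With array weights Arl5a was at -0.23, Rab7 at 0.13 and Rab8a at 0.025. Arl5c was at -0.020 with neqc, and Rab7 at 0.10 when its targets were averaged. With 1 array left out, Arf5 lay between -0.30 and 0.019, Arl5a between -0.51 and 1.09, Rab7 between -0.14 and 0.072, Rab8a between -0.21 and 0.092, Sec23a between -0.15 and 0.78 and Sec61b between -0.19 and 0.0078. The cause was not tested. The difference of Dennd10 was 0.09 with double the floor, under which most of its signals lie at the floor, and 0.57 or more under the other alternatives. With the label number as a replicate block, in which Myc-null 4 has no partner, 3 members were at an unadjusted p under 0.05, the Rab median was 0.0081, the cargo receptor median 0.032 and Rab7 at 0.0081, and no call changed. The number of arrays and signal near background limit what the 7 dim members, detected on 3 to 6 arrays, can show.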
